A study of Metroxylon sagu with 6 samples.

Results

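Xylan and xyloglucan are the main hemicelluloses of plant cell walls, polysaccharides that tie cellulose fibrils together. The genes described here are the 139 Unigenes, of 99933 in all, whose best Swiss-Prot match holds words for enzymes of xylan or xyloglucan synthesis, which 27 of them share with enzymes of other substrates, and whose Nr match names the oil palm *Elaeis guineensis* or the date palm *Phoenix dactylifera*. Unigenes are transcripts put together from the reads without a genome. Leaves were taken from 3 non-trunking palms (libraries SN7, SN8 and SN9) and from 3 trunking palms (ST1, ST4 and ST5, the control) of sago palm, *Metroxylon sagu*, with 1 library per palm. All 6 palms grew on a peat soil plantation, and no genotype or age is stated in the labels. A non-trunking palm is one that has not formed its starch-bearing trunk. The palms of each phenotype stood together at a place of their own, so phenotype and place cannot be told apart.

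Xylan is built in the Golgi as a chain of xylose, and grasses and palms hold much of it in their walls. Its donor, UDP-xylose, is made from UDP-glucuronic acid by the UXS enzymes. In *Arabidopsis thaliana* the chain is extended by proteins of the IRX9, IRX10 and IRX14 types, IRX7 and F8H are needed for the sequence at its reducing end, GUX enzymes add glucuronic acid, GXM enzymes methylate that sugar, and proteins of the trichome birefringence-like (TBL) family add acetyl groups. Xyloglucan instead has a glucan chain, to which XXT enzymes add xylose and MUR3 or XLT2 enzymes add galactose. In *Arabidopsis* xylan is abundant in the thick secondary walls of xylem and fibres, while xyloglucan belongs to primary walls. This division was not measured in sago palm.

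By the words of their match, 12 members fell to UDP-xylose supply, 25 to the xylan backbone, 2 to the reducing end, 3 to glucuronic acid side chains, 2 to methylation, 52 to the TBL family and 16 to xyloglucan side chains. The remaining 27 matched the words of the rule but are known for other substrates or have no settled one. They were 22 of the GlcAT14 type, which act on arabinogalactan proteins in *Arabidopsis*, 3 of PGSIP8 and 2 of IPUT1, an enzyme of sphingolipid synthesis. The match was to an *Arabidopsis* protein for 121 members and to a rice protein for 18, over 48 Swiss-Prot entries. These names are matches in other species, and no function was measured in sago palm. Of the members, 91 were contigs of 32 clusters of similar sequences and 48 stood alone, which makes 80 clusters or single Unigenes. RSEM divides reads between near-identical contigs of a cluster, and the level of a single contig is uncertain to that extent.

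The members were longer than most Unigenes and, among those tested, somewhat lower in level. The median member was 1593 nt long, while the median of all Unigenes was 568 nt, and 120 were listed in all 6 libraries. Levels are given as FPKM (fragments mapped to a Unigene, scaled by its length and by the fragments of the library), the only scale on which Unigenes are compared with each other here. The median member had a mean of 2.05 FPKM, 14 members had a mean of 10 FPKM or more, and 31 had a mean under 1 FPKM. Among the Unigenes tested, the median was 2.76 FPKM for members and 3.69 FPKM for all. The 6 libraries held between 17927176 and 18492907 expected counts each, and the scaling factors of the TMM method lay between 0.824 (SN7) and 1.13 (SN9). The filter on low counts left 115 members and 45928 Unigenes in all for the test. A member could pass this filter through 1 group alone. The 24 members that did not pass had means of at most 1.42 FPKM, among them the only match to IRX15 (247 nt) and all 3 matches to XLT2 (225 to 588 nt).

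The leaf tissue was checked against marker genes. The 40 Unigenes of Rubisco small subunit and chlorophyll a-b binding proteins summed to between 15870 and 29880 FPKM in the non-trunking and between 12200 and 25190 FPKM in the trunking palms. Of these, 38 could be tested, with a median log2 fold change of 0.60, 32 positive values (84.2%, beside 51.4% of all Unigenes), and 3 higher and 0 lower in non-trunking palms at an unadjusted p under 0.05. Matches to markers of secondary wall formation were few, short and low in level. The 5 Unigenes matched to CESA4, a cellulose synthase subunit of secondary walls, summed to 2.67, 1.55 and 3.05 FPKM in SN7, SN8 and SN9, against 6.82, 4.73 and 4.09 FPKM in ST1, ST4 and ST5, so every non-trunking palm lay below every trunking palm. Of these, 3 could be tested, with log2 fold changes between -1.83 and -0.64, and 0 had an unadjusted p under 0.05. NAC domain-containing protein 43, a switch of secondary wall formation in *Arabidopsis*, was listed in SN9 and ST1 only, at a summed 0.90 and 1.36 FPKM. The CESA4 matches were 396 to 772 nt long and the NAC matches 202 and 388 nt. The other secondary wall markers searched for had no match, so these markers say little about secondary walls in the leaves. In bulk leaf, fewer cells of a type and less RNA per cell cannot be told apart, and the part of cell types in the results below was not tested.

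Summed over their members, most steps had overlapping levels in the phenotypes. Summed FPKM was 166 ± 17.7 in non-trunking and 142 ± 35.9 in trunking palms for UDP-xylose supply, and 88.7 ± 17.5 against 74.3 ± 6.70 for the xylan backbone (SD, n = 3 each). For the TBL family it was 133 ± 31.2 against 137 ± 8.12, and for xyloglucan side chains 42.1 ± 12.3 against 42.98 ± 16.0 (non-trunking against trunking palms, SD, n = 3 each). In these 4 sums the groups overlapped and the means differed by less than the larger of the SDs. Only the sum for glucuronic acid side chains kept the groups apart, at 3.30, 4.74 and 3.07 FPKM in SN7, SN8 and SN9, against 0.56, 2.35 and 2.26 FPKM in ST1, ST4 and ST5.

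**Figure D1:**
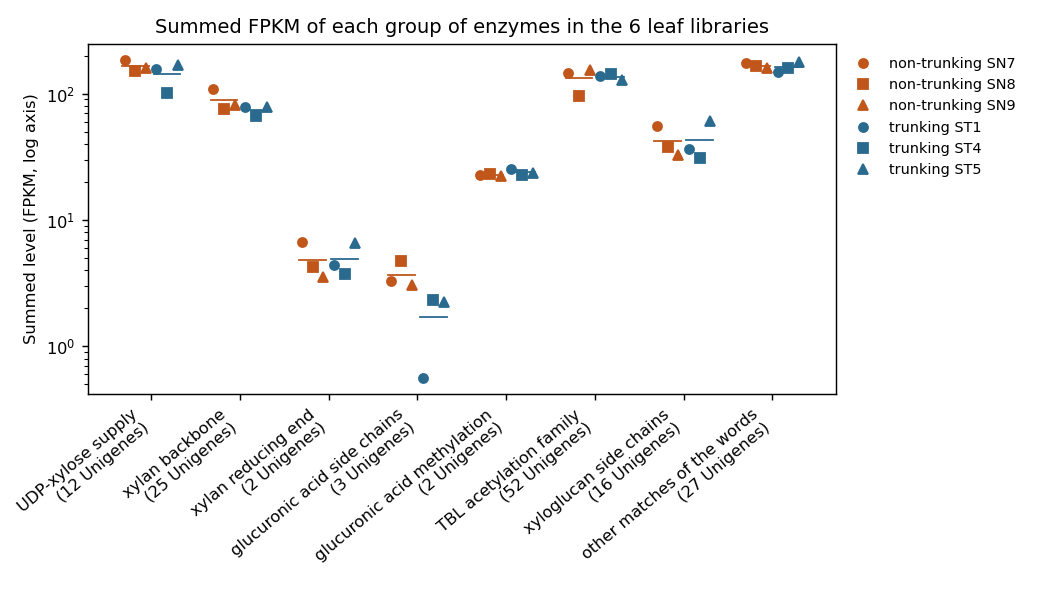
Summed FPKM (vertical log axis) of the members of each group of enzymes, 1 point per library, with the mean of each phenotype as a line. Points of both phenotypes lie among each other in every group except glucuronic acid side chains, where the non-trunking palms sit between 3.07 and 4.74 and the trunking palms between 0.56 and 2.35.

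Differences between the phenotypes were tested with edgeR's two-sided quasi-likelihood test over all 45928 Unigenes, with the log2 fold change taken as non-trunking minus trunking. No member passed an adjusted p of 0.05 (0 of 115, where all Unigenes gave 0%), and the smallest adjusted p of a member was 0.185. An unadjusted p under 0.05 was found for 5 members (4.35% of 115), while the share over all Unigenes tested was 9.85%. Of these, 4 were higher and 1 was lower in non-trunking palms. Higher and lower members numbered 0 and 3 without SN7, 9 and 4 without SN8, 1 and 2 without ST4, and 2 and 1 without ST5, where 7.55%, 12%, 10.2% and 6.67% of all Unigenes had such a p. The 13 members without SN8 were 10.9% of those tested, below the 12% of all Unigenes. The median log2 fold change of the 115 members was 0.08, beside 0.02 for all Unigenes, and 67 members (58.3%) had a positive value, beside 51.4% of all Unigenes. In 17 members (14.8%) the 3 palms of one phenotype all lay above the 3 of the other on TMM-normalized CPM (counts scaled to an equal library total), beside 17.3% of all Unigenes. Non-trunking palms were the higher group in 11 of the 17 and the lower group in 6, where the shares over all Unigenes were 8.71% and 8.55%. Neither the 4.35% nor the 14.8% of the members was above the share of all Unigenes. DESeq2's Wald test and edgeR's likelihood ratio test each called 1 member at an adjusted p under 0.05, where they called 2.22% and 1.68% of all Unigenes, and limma on log2(FPKM + 1) called 0 members, where it called 0.00904%. The Unigene called was the same in both, matched to IPUT1 and described after the steps of synthesis. It was not one of the 112 members placed with a step of synthesis or with the TBL family, whose matches were grouped whatever their substrate.

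**Figure D2:**
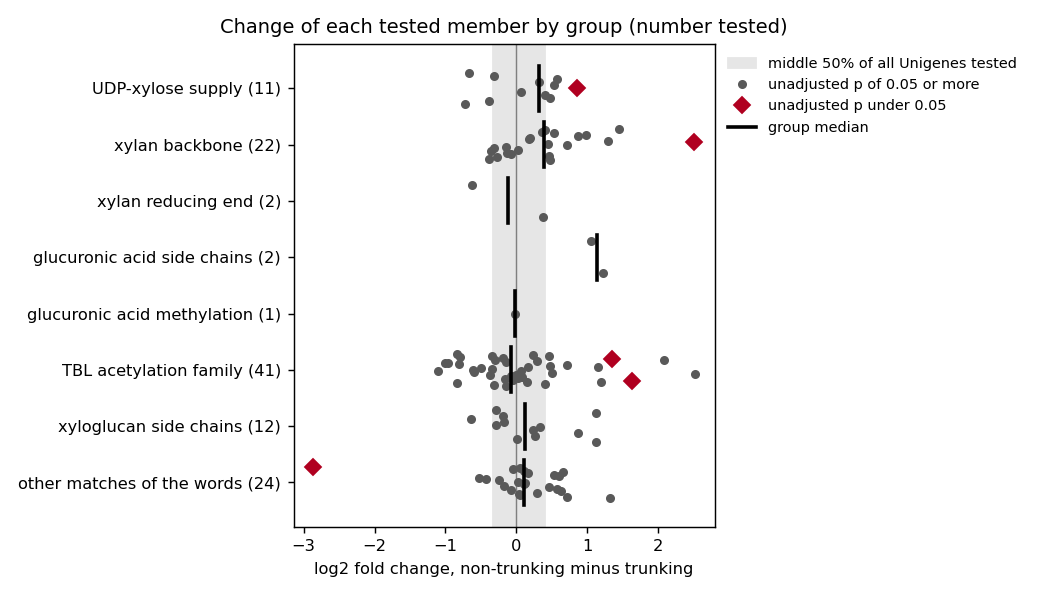
The log2 fold change (horizontal axis, non-trunking minus trunking) of each of the 115 tested members by group, with group medians as bars and the middle quartiles of all Unigenes in grey. Most members lie in or near the grey band, and the 5 diamonds are those with an unadjusted p under 0.05, the lowest of them at -2.87.

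UDP-xylose supply held the 2 most abundant members. CL6835.Contig1_All, matched to UXS6, a cytosolic form in *Arabidopsis*, stood at 42.5, 42.6 and 43.3 FPKM in SN7, SN8 and SN9, against 41.5, 20.6 and 33.6 FPKM in ST1, ST4 and ST5. The non-trunking palms were nearly equal while the trunking palms were spread, and after TMM scaling the groups overlapped. Its log2 fold change was 0.47, its standard error (SE) 0.33 and its edgeR adjusted p 0.696. Unigene19978_All, matched to UXS2, a Golgi form, varied widely between palms, with 55.7, 30.4 and 21.9 FPKM in SN7, SN8 and SN9, against 18.6, 17.0 and 43.5 FPKM in ST1, ST4 and ST5. SN7 and ST5, palms of different phenotype, held its highest levels. The log2 fold change of this Unigene was 0.58 (SE 0.57), and it was -0.07 without SN7.

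Of the 11 tested members of this step, 1 (9.09%) had an unadjusted p under 0.05, beside 9.85% of all Unigenes. In 3 of them (27.3%, beside 17.3% of all Unigenes) the phenotypes did not overlap. The 2 of smallest p, described next, were chosen by that p and were low in level. CL7244.Contig3_All, another UXS6 match, had 1.97, 2.11 and 2.99 FPKM in SN7, SN8 and SN9, against 1.23, 1.28 and 1.5 FPKM in ST1, ST4 and ST5. The groups did not overlap, and the log2 fold change of 0.86 (SE 0.33) had an edgeR adjusted p of 0.460, and 0.0342 before adjustment. Summed over the 4 contigs of its cluster the log2 fold change was 0.39 (SE 0.17). CL2934.Contig1_All, matched to UXS2, went the other way, with 1.85, 3.11 and 4.23 FPKM in SN7, SN8 and SN9, against 5.66, 4.85 and 4.68 FPKM in ST1, ST4 and ST5. It was lower in every non-trunking palm than in every trunking palm, with a log2 fold change of -0.73, an SE of 0.31 and an edgeR adjusted p of 0.519. By match, the 6 tested UXS6 Unigenes had log2 fold changes between 0.07 and 0.86, all positive, beside 51.4% of all Unigenes. In contrast, 4 of the 5 UXS1 and UXS2 Unigenes had negative ones. The UXS6 Unigenes came from only 3 clusters or single Unigenes, and those of UXS1 and UXS2 from 4. This division by match was not one of the groups of enzymes set above. The 7 UXS6 Unigenes summed to 103 ± 6.88 FPKM in non-trunking and 79.3 ± 20.2 FPKM in trunking palms, and the 5 of UXS1 and UXS2 to 63.0 ± 14.6 and 63.1 ± 19.2 FPKM (SD, n = 3 each). UXS1 itself had 1 Unigene, Unigene23001_All, at 19.1 ± 0.407 FPKM in non-trunking and 24.5 ± 6.94 FPKM in trunking palms (SD, n = 3 each).

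The xylan backbone group had a median log2 fold change of 0.39 over 22 tested members, with 15 positive (68.2%) and 7 negative values, where 51.4% of all Unigenes were positive. An unadjusted p under 0.05 was found for 1 of the 22 (4.55%), beside 9.85% of all Unigenes. This median was between 0.15 and 0.34 without each library in turn and 0.11 in limma's fit of log2(FPKM + 1). KEGG assigned 13 of the tested members to the IRX9 type, with a median of 0.45, 5 to the IRX10 type, with a median of -0.14, and 4 to the IRX14 type, with a median of 0.74. One of the 5 IRX10-type Unigenes is the F8H match placed with the reducing end here.

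The highest members of the backbone were both contigs of 1 cluster matched to IRX9, which extends the chain together with IRX14 in *Arabidopsis*. CL9194.Contig1_All had 24.1, 8.19 and 14.4 FPKM in SN7, SN8 and SN9, against 10.8, 7.17 and 9.75 FPKM in ST1, ST4 and ST5. CL9194.Contig2_All had 22.3, 6.75 and 11.2 FPKM in SN7, SN8 and SN9, against 8.39, 5.08 and 8.67 FPKM in ST1, ST4 and ST5. In both contigs SN7 was highest and SN8 lay within the range of the trunking palms. Their log2 fold changes of 0.87 (SE 0.49) and 0.99 (SE 0.55) had edgeR adjusted p of 0.618 and 0.614. Without SN7 these values were 0.20 and 0.19, so that 1 palm set most of their size.

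The IRX14 type came as 4 contigs of 1 cluster matched to the rice protein Os06g0687900. CL8985.Contig2_All had 2.06, 1.14 and 0.58 FPKM in SN7, SN8 and SN9, against 0.36, 0.07 and 0.30 FPKM in ST1, ST4 and ST5, which rest on 12.1 to 44.0 and 1.47 to 7.72 expected counts. The groups did not overlap, and the log2 fold change was 2.51 (SE 0.90, unadjusted p = 0.0279, adjusted p = 0.444 in edgeR's test). CL8985.Contig3_All had 1.96, 1.71 and 0.82 FPKM in SN7, SN8 and SN9, against 0.65, 0.38 and 0.93 FPKM in ST1, ST4 and ST5, with a log2 fold change of 1.29 and an SE of 0.60, and there the groups overlapped. These are the minor contigs of their cluster. Summed over all 5 contigs, the cluster held 17.9, 17.9 and 13.9 FPKM in SN7, SN8 and SN9, against 12.3, 14.9 and 16.9 FPKM in ST1, ST4 and ST5, where the groups overlapped and the log2 fold change was 0.28 (SE 0.24).

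The IRX9H matches, the form of IRX9 that is not tied to secondary walls in *Arabidopsis*, and the IRX10L matches, a chain-extending form there, overlapped between the phenotypes. The 9 IRX9H Unigenes summed to 17.8 ± 4.77 FPKM in non-trunking and 20.1 ± 1.88 FPKM in trunking palms (SD, n = 3 each). The 3 IRX10L Unigenes summed to 10.2 ± 1.33 FPKM in non-trunking and 11.8 ± 0.926 FPKM in trunking palms (SD, n = 3 each). Their median log2 fold changes were -0.13 and -0.14.

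Reducing end members were few and low. CL10144.Contig2_All, matched to IRX7, had 5.78, 3.0 and 2.22 FPKM in SN7, SN8 and SN9, against 2.36, 2.16 and 4.75 FPKM in ST1, ST4 and ST5. Here too SN7 and ST5 were the highest palms, and the log2 fold change of 0.38 (SE 0.60) was -0.30 without SN7. Its cluster partner CL10144.Contig1_All was matched to the rice protein Os03g0107900 and counted with the backbone by its name, although KEGG gives IRX7 for both contigs. Unigene28663_All, matched to F8H, had 0.93, 1.23 and 1.31 FPKM in SN7, SN8 and SN9, against 2.02, 1.60 and 1.87 FPKM in ST1, ST4 and ST5. The groups did not overlap in it, with a log2 fold change of -0.62, an SE of 0.33 and an edgeR adjusted p of 0.592.

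Glucuronic acid side chains were represented by 3 Unigenes matched to GUX1 (GUX3 by their oil palm Nr match), of which 2 contigs of 1 cluster were tested. CL2169.Contig1_All had 1.23, 2.09 and 1.05 FPKM in SN7, SN8 and SN9, against 0.24, 1.02 and 0.70 FPKM in ST1, ST4 and ST5, resting on 26.4 to 52.0 and 6.0 to 25.6 expected counts. CL2169.Contig2_All had 1.37, 1.10 and 1.55 FPKM in SN7, SN8 and SN9, against 0.20, 0.74 and 1.10 FPKM in ST1, ST4 and ST5. ST1 was the lowest palm in both. Their log2 fold changes were 1.22 (SE 0.62, edgeR adjusted p = 0.574) and 1.06 (SE 0.64, edgeR adjusted p = 0.643). Summed over the cluster, the groups did not overlap on CPM, with a log2 fold change of 1.15, an SE of 0.54 and an edgeR adjusted p of 0.492.

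Methylation of glucuronic acid rested on 1 abundant member. Unigene37_All, matched to GXM3, had 22.1, 23.3 and 22.3 FPKM in SN7, SN8 and SN9, against 25.2, 22.8 and 23.8 FPKM in ST1, ST4 and ST5. The log2 fold change was -0.02 (SE 0.20), the smallest SE among the named members, and it lay between -0.13 and 0.07 without each library. The other GXM3 match, Unigene53925_All, is a fragment of 333 nt listed only in SN7, at 0.81 FPKM, and it was not tested.

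**Figure D3:**
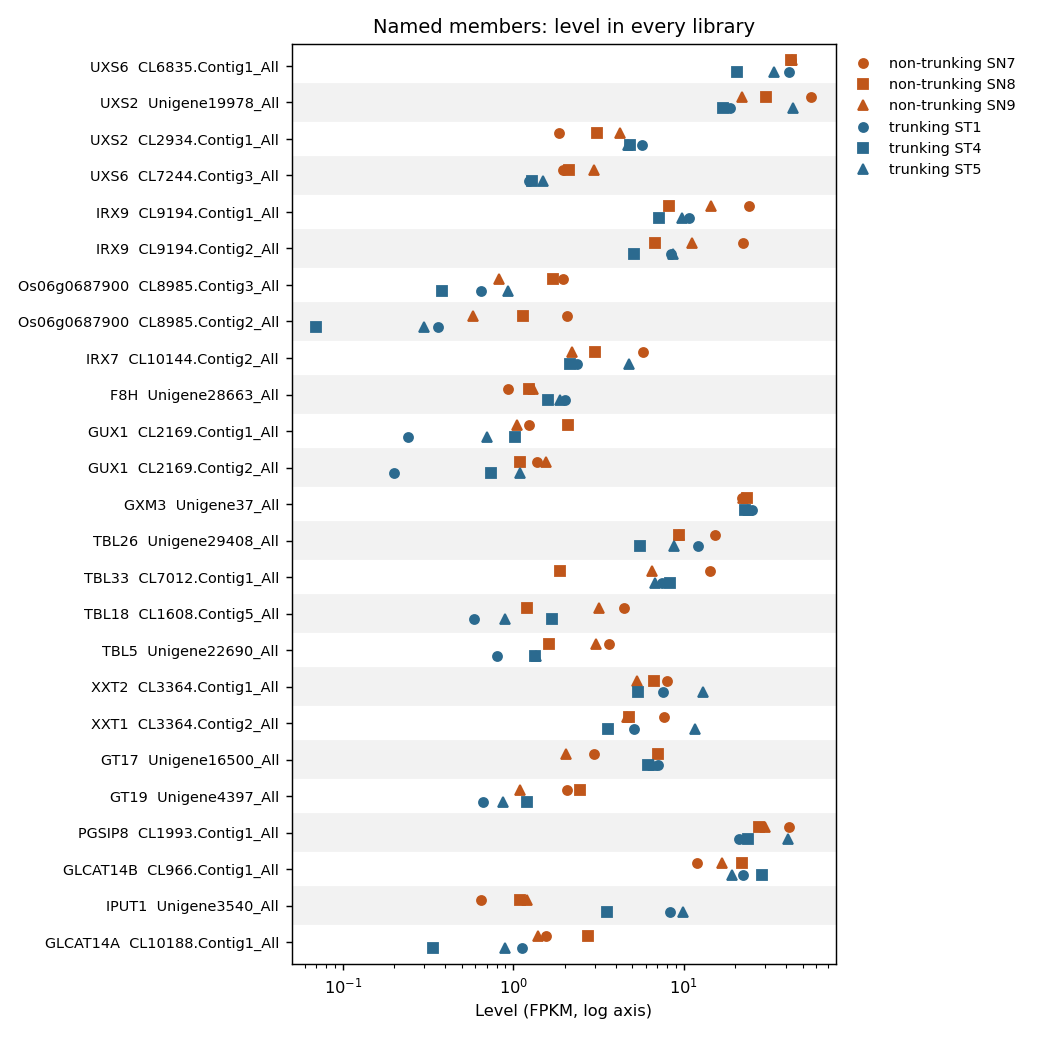
FPKM (horizontal log axis) of the 25 named members that were tested, 1 point per library, ordered by the step of synthesis. The points of the phenotypes are mixed in most rows, with the clearest gap for Unigene3540_All (IPUT1), where the non-trunking palms lie between 0.65 and 1.20 and the trunking palms between 3.55 and 9.93.

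The TBL family, with 52 Unigenes in 30 clusters or single Unigenes, was the largest group, and its 41 tested members had a median log2 fold change of -0.07 between -1.10 and 2.53. Of these, 18 were positive and 23 negative, 2 (4.88%) had an unadjusted p under 0.05 and 5 (12.2%) did not overlap between the phenotypes, where the shares over all Unigenes were 9.85% and 17.3%. In *Arabidopsis* TBL28 and TBL32 to TBL34 acetylate xylan, and TBL23, TBL25 and TBL26 acetylate mannan. This division was made after the values were seen. The 14 Unigenes of the xylan type summed to 30.5 ± 14.3 FPKM in non-trunking and 25.8 ± 8.10 FPKM in trunking palms, and the 8 of the mannan type to 25.8 ± 2.90 against 25.6 ± 4.59 FPKM (SD, n = 3 each). The other 30 members summed to 76.3 ± 15.3 FPKM in non-trunking and 85.2 ± 3.45 FPKM in trunking palms (SD, n = 3 each). In none of these 3 sums was the difference of the means larger than the larger SD.

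The most abundant TBL members were uneven between palms of one phenotype. Unigene29408_All, matched to TBL26, had 15.3, 9.43 and 9.33 FPKM in SN7, SN8 and SN9, against 12.2, 5.50 and 8.79 FPKM in ST1, ST4 and ST5. CL7012.Contig1_All, matched to TBL33, had 14.2, 1.89 and 6.53 FPKM in SN7, SN8 and SN9, against 7.50, 8.35 and 6.82 FPKM in ST1, ST4 and ST5. The non-trunking palms of this Unigene held both its highest and its lowest level. The log2 fold change was 0.46 (SE 0.44) for the TBL26 match and 0.16 (SE 0.69) for the TBL33 match, which was -0.01 when scaled by library size alone.

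The TBL members of smallest p were a TBL5 and a TBL18 match. Unigene22690_All, matched to TBL5, had 3.66, 1.63 and 3.04 FPKM in SN7, SN8 and SN9, against 0.80, 1.34 and 1.35 FPKM in ST1, ST4 and ST5. Every non-trunking palm was above every trunking palm, with a log2 fold change of 1.35, an SE of 0.49 and an edgeR adjusted p of 0.446, and 0.0283 before adjustment. CL1608.Contig5_All, matched to TBL18, had 4.47, 1.21 and 3.17 FPKM in SN7, SN8 and SN9, against 0.59, 1.68 and 0.90 FPKM in ST1, ST4 and ST5. The groups overlapped through SN8 and ST4, the log2 fold change was 1.64 (SE 0.60, edgeR adjusted p = 0.449), and over the 6 contigs of the cluster it was 0.96 (SE 0.50). Contigs of a cluster could also part. In the cluster CL6600, matched to TBL10 and TBL11, CL6600.Contig3_All had 5.37, 4.03 and 7.56 FPKM in SN7, SN8 and SN9, against 11.6, 5.86 and 7.12 FPKM in ST1, ST4 and ST5, whereas CL6600.Contig4_All had 4.02, 1.13 and 2.40 FPKM in SN7, SN8 and SN9, against 1.14, 1.37 and 1.17 FPKM in ST1, ST4 and ST5. This cluster was picked after its values were seen.

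Several TBL members swung more between palms of one phenotype than between the phenotypes, and those named here were picked after their values were seen. CL7012.Contig3_All, matched to TBL33, had 7.31, 0.19 and 7.08 FPKM in SN7, SN8 and SN9, against 1.98, 6.01 and 1.82 FPKM in ST1, ST4 and ST5. CL2950.Contig4_All, also matched to TBL33, had 2.54, 0.28 and 3.29 FPKM in SN7, SN8 and SN9, against 0.94, 4.87 and 0.92 FPKM in ST1, ST4 and ST5. Both were high in SN7, SN9 and ST4 and low in the other palms, and their log2 fold changes were 0.71 (SE 1.09) and -0.01 (SE 0.96). Unigene22403_All, the only TBL2 match, had 10.2, 0.19 and 4.57 FPKM in SN7, SN8 and SN9, against 2.0, 1.11 and 0.83 FPKM in ST1, ST4 and ST5, and SN8 held its lowest level. The 3 TBL6 Unigenes summed to 8.06 ± 3.79 FPKM in non-trunking and 16.2 ± 9.32 FPKM in trunking palms (SD, n = 3 each), where ST4 alone had 26.8 FPKM and the other palms at most 12.5 FPKM. The 4 TBL23 Unigenes were more even, with 8.26, 9.53 and 9.54 FPKM in SN7, SN8 and SN9, against 11.2, 11.2 and 11.8 FPKM in ST1, ST4 and ST5, a sum that kept the phenotypes apart. Of its 3 tested Unigenes, 2 contigs of 1 cluster were lower in every non-trunking than in every trunking palm on CPM, with log2 fold changes of -0.32 (SE 0.23) and -0.84 (SE 0.52).

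Xyloglucan side chains gave 12 tested members with a median log2 fold change of 0.12, of which 7 were positive (58.3%, beside 51.4% of all Unigenes). Of the 12, 0 had an unadjusted p under 0.05 (beside 9.85% of all Unigenes) and 0 kept the phenotypes apart (beside 17.3%). The xylosyltransferases led in level. CL3364.Contig1_All, matched to XXT2, had 7.98, 6.72 and 5.31 FPKM in SN7, SN8 and SN9, against 7.51, 5.41 and 12.9 FPKM in ST1, ST4 and ST5. CL3364.Contig2_All, matched to rice XXT1, had 7.62, 4.77 and 4.65 FPKM in SN7, SN8 and SN9, against 5.09, 3.61 and 11.7 FPKM in ST1, ST4 and ST5. ST5 was highest in both, and their log2 fold changes of -0.28 (SE 0.42) and -0.17 (SE 0.53) became 0.15 and 0.50 without it.

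Galactosyltransferases of xyloglucan were also uneven between palms. The 7 Unigenes matched to the rice KATAMARI1 homologue, the MUR3 type, summed to 25.1, 10.5 and 12.2 FPKM in SN7, SN8 and SN9, against 7.34, 6.94 and 18.8 FPKM in ST1, ST4 and ST5. SN7 and ST5 stood above the other palms here as well. Unigene16500_All, matched to the probable galactosyltransferase GT17, had 2.99, 7.09 and 2.04 FPKM in SN7, SN8 and SN9, against 7.02, 6.20 and 6.57 FPKM in ST1, ST4 and ST5. The trunking palms were close together, and SN8 was as high as they were (log2 fold change -0.64, SE 0.47). Unigene4397_All, matched to GT19, had 2.06, 2.45 and 1.10 FPKM in SN7, SN8 and SN9, against 0.66, 1.21 and 0.87 FPKM in ST1, ST4 and ST5, with a log2 fold change of 1.13 and an SE of 0.56 (edgeR adjusted p = 0.571).

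The spread between palms was as large for the members as for other Unigenes. The median SD within a phenotype was 0.451 on log2 CPM for the members and 0.412 for all Unigenes tested. In 70 of the 115 members (60.9%) the means of the phenotypes differed by less than this SD, and the share over all Unigenes was 60.9%. SN7 held the highest value most often on CPM and on FPKM, and how far it led depended on the scaling. SN7 was the highest library on CPM for 42 members (36.5%), beside 23.1% of all Unigenes, ST5 for 24 (20.9%), beside 16.0%, and SN9 for 9 (7.83%), beside 14.7%. ST4 was the lowest library for 36 members (31.3%), beside 14.9% of all Unigenes. SN7 has the lowest TMM factor of the libraries, SN9 the highest (1.13) and ST4 the next (1.11). This raises the CPM of SN7 and lowers that of SN9 and ST4 against their FPKM. The lowest library was not counted on FPKM. On FPKM, SN7 was highest for 27 members, SN8 for 15, SN9 for 25, ST1 for 14, ST4 for 13 and ST5 for 21, so that SN7 and SN9 lay close. Contigs of 1 cluster share reads, and these shares are a description without a test.

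**Figure D4:**
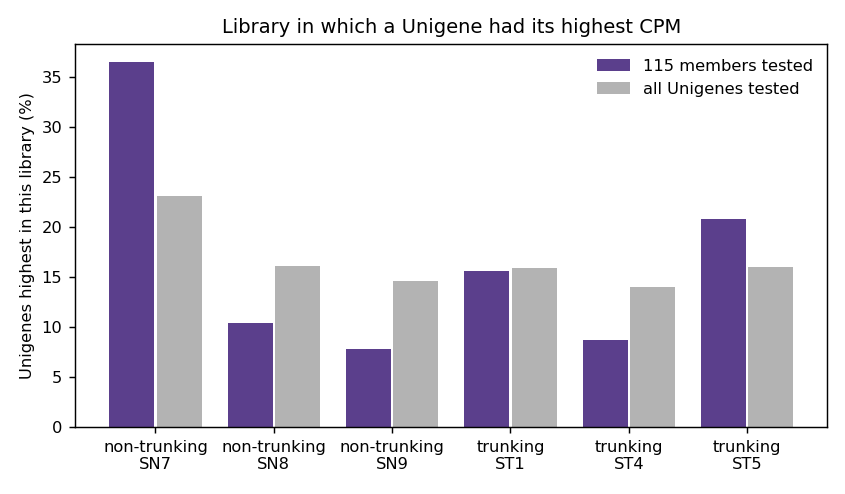
Share (%) of the 115 tested members and of all 45928 tested Unigenes whose highest TMM-normalized CPM fell in each library. SN7 holds the highest value of 36.5% of the members, beside 23.1% of all Unigenes, while SN9 holds 7.83%, beside 14.7%, on CPM only, since on FPKM SN7 was highest for 27 and SN9 for 25 members.

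The 27 members known for other substrates included the member of smallest p. Unigene3540_All had 0.65, 1.09 and 1.20 FPKM in SN7, SN8 and SN9, against 8.25, 3.55 and 9.93 FPKM in ST1, ST4 and ST5, resting on 22 to 40 and 117 to 336 expected counts. Every non-trunking palm lay well below every trunking palm. The log2 fold change was -2.87 (SE 0.47) and lay between -3.23 and -2.57 without each library. Its unadjusted p was 0.000541 and its adjusted p 0.185 in the main edgeR test, while the adjusted p was 2.78e-05 in DESeq2's Wald test and 6.18e-05 in edgeR's likelihood ratio test, so the call depended on the tool. Its Swiss-Prot match is IPUT1, which transfers glucuronic acid to inositol phosphorylceramide in *Arabidopsis*, but its Nr match in date palm is named PGSIP8, so its identity is open between these glucuronosyltransferases. The other IPUT1 match, Unigene29253_All, whose Nr match carries the same name, stood at 15.3 ± 0.911 FPKM in non-trunking and 15.5 ± 1.51 FPKM in trunking palms (SD, n = 3 each), with a log2 fold change of 0.05.

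Among the rest of these members, CL1993.Contig1_All, matched to PGSIP8, had 41.4, 27.6 and 30.1 FPKM in SN7, SN8 and SN9, against 21.1, 23.7 and 41.0 FPKM in ST1, ST4 and ST5. It again had its highest levels in SN7 and ST5 (log2 fold change 0.30, SE 0.38, and -0.06 without SN7). CL966.Contig1_All, matched to GlcAT14B, had 12.02, 21.9 and 16.8 FPKM in SN7, SN8 and SN9, against 22.3, 28.7 and 19.2 FPKM in ST1, ST4 and ST5, with a log2 fold change of -0.42 and an SE of 0.24. CL10188.Contig1_All, matched to GlcAT14A, had 1.56, 2.76 and 1.39 FPKM in SN7, SN8 and SN9, against 1.12, 0.34 and 0.89 FPKM in ST1, ST4 and ST5. Its groups did not overlap, and the log2 fold change was 1.32 (SE 0.61, edgeR adjusted p = 0.538). CL9749.Contig1_All, a GlcAT14B match, had 23.5, 17.2 and 19.5 FPKM in SN7, SN8 and SN9, against 15.7, 16.7 and 9.91 FPKM in ST1, ST4 and ST5, and it did not overlap either (log2 fold change 0.61, SE 0.30, edgeR adjusted p = 0.565). It was not among the members named by level or smallest p, and was picked after its values were seen. The 22 GlcAT14 Unigenes summed to 117 ± 3.66 FPKM in non-trunking and 110.1 ± 5.62 FPKM in trunking palms (SD, n = 3 each). Over the 21 tested GlcAT14 Unigenes the median was 0.11, with 15 positive (71.4%, beside 51.4% of all Unigenes) and 0 with an unadjusted p under 0.05 (beside 9.85%). In 5 of them (23.8%, beside 17.3% of all Unigenes) the phenotypes did not overlap, all 5 higher in non-trunking palms, and 4 of the 5 were contigs of only 2 clusters.

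Other genes of the same pathways, outside the rule, were read from lists of Swiss-Prot words. Over all Unigenes tested, 5.43% had an unadjusted p under 0.05 and were higher in non-trunking palms, and 4.43% were lower. Among 20 tested Unigenes of wall acetylation, matched to ESKIMO 1, a xylan acetyltransferase of the TBL family under another name, or to REDUCED WALL ACETYLATION proteins, which supply acetyl groups for wall polysaccharides in the Golgi, 5 were higher and 0 lower at this limit, and the median log2 fold change was 0.38. The 5 were 2 contigs each of 2 clusters and 1 single Unigene, which makes 3 clusters or single Unigenes. Unigene26241_All, the most abundant ESKIMO 1 match, had 19.7, 15.3 and 9.87 FPKM in SN7, SN8 and SN9, against 6.01, 2.61 and 5.74 FPKM in ST1, ST4 and ST5. The groups did not overlap, with a log2 fold change of 1.74, an SE of 0.49 and an edgeR adjusted p of 0.348. Among 11 tested xylosidases, which trim xylan and xyloglucan, 4 were higher (2 of them contigs of 1 cluster) and 0 lower, with a median of 0.78. The 2 with negative values, CL6087.Contig1_All (-1.04) and CL6956.Contig3_All (-0.96), belonged to clusters that also held positive ones. CL6087.Contig1_All was lower in every non-trunking than in every trunking palm on CPM. CL3126.Contig2_All, matched to beta-D-xylosidase 1, had 6.44, 3.74 and 6.11 FPKM in SN7, SN8 and SN9, against 0.66, 0.95 and 0.70 FPKM in ST1, ST4 and ST5, a log2 fold change of 2.90 (SE 0.35). The main edgeR test gave it an adjusted p of 0.161 and DESeq2's Wald test 8.52e-08.

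Among 47 tested Unigenes of UDP-sugar handling, 4 were higher and 0 lower, with a median of 0.42, and 3 of the 4 were contigs of 1 cluster matched to UDP-xylose transporter 1, which carries UDP-xylose into the Golgi. CL4531.Contig1_All of that cluster had 8.55, 3.65 and 7.19 FPKM in SN7, SN8 and SN9, against 2.06, 2.74 and 2.20 FPKM in ST1, ST4 and ST5. Its log2 fold change was 1.57 (SE 0.41), with an edgeR adjusted p of 0.320. Mannan synthesis gave 1 higher and 0 lower of 6 tested. That one, CL2026.Contig2_All, matched to glucomannan 4-beta-mannosyltransferase 9, had 9.39, 5.73 and 9.86 FPKM in SN7, SN8 and SN9, against 2.67, 1.59 and 0.85 FPKM in ST1, ST4 and ST5, with a log2 fold change of 2.35 and an SE of 0.49. The main edgeR test gave an adjusted p of 0.230 and DESeq2's Wald test 0.00214. Xyloglucan backbone and fucosylation gave 0 of 10 tested and a median of 0.04. These Unigenes were named after their values were seen, and the difference between the lists and the members was not tested. Leaf mesophyll markers also had mostly positive log2 fold changes (median 0.60), with summed levels that overlapped between the phenotypes. Their part in the higher values of these lists was not tested.

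**Figure D5:**
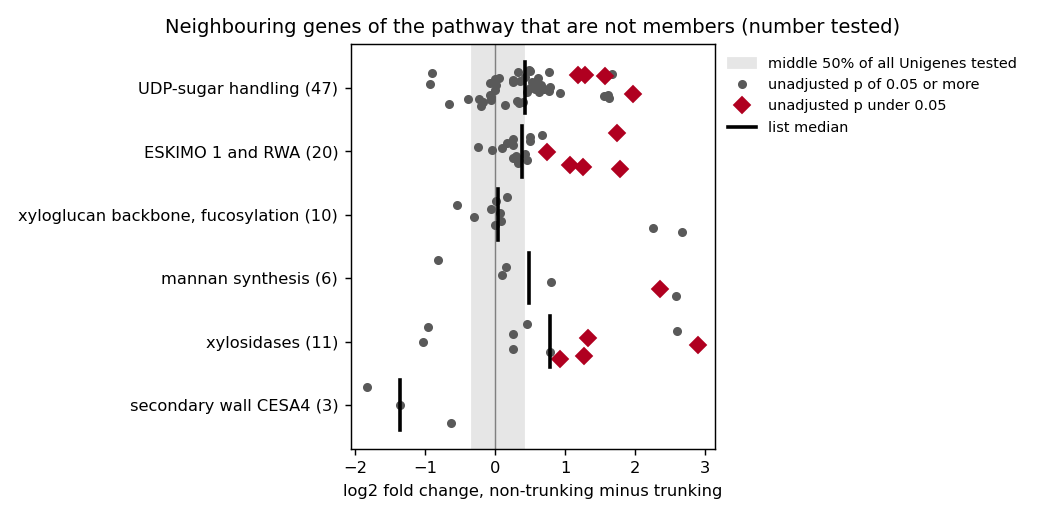
The log2 fold change (horizontal axis, non-trunking minus trunking) of tested Unigenes in the neighbouring lists and of the CESA4 marker, with list medians as bars and the middle quartiles of all Unigenes in grey. The diamonds, with an unadjusted p under 0.05, all lie right of 0, up to 2.90 among the xylosidases, and the CESA4 Unigenes lie left of 0.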

How the data were processed

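The authors sequenced leaf RNA of 6 palms on a BGISEQ-500, assembled it with Trinity and TGICL, mapped reads back with Bowtie2 and quantified with RSEM, whose versions were not given in the sources used here. The authors deposited, per Unigene and library, the expected count, an estimated count without normalization, and the FPKM, with Unigene lengths and database matches in the same files. A Unigene under 0.01 FPKM in a library is not listed there and was taken as 0. No genome was used, so the Unigenes have no chromosome positions.

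Members and lists were chosen with earlier results of these data known. Expected counts were rounded and tested over all Unigenes with edgeR 4.0.16 in R 4.3.3 (filterByExpr, TMM factors, the quasi-likelihood test of glmQLFTest, Benjamini-Hochberg adjusted p under 0.05). A standard error is the log2 fold change divided by the square root of F. Alternatives were DESeq2 1.42.0, edgeR's likelihood ratio test, limma 3.58.1 on log2(FPKM + 1) and log2(FPKM + 0.1) over Unigenes of at least 1 FPKM in 3 libraries, other scalings, no filter, counts summed per cluster, any Nr match, and each library left out. Adjusted p that DESeq2 left empty stayed empty (20 members). The code was tested on simulated data. In each group of enzymes the 2 members of highest mean FPKM and the 2 of smallest p were named, and any with an adjusted p under 0.05 in DESeq2. Files were joined in pandas 2.3.3 and NumPy 2.4.6 under Python 3.11.15, and figures drawn with Matplotlib 3.10.9. At 17927176 to 18492907 counts per library the spread between palms, which are separate plants, sets the precision for all but the lowest members. No library was a copy of another (chi-square of the counts at least 40.04 times its degrees of freedom in every pair).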

Additional observations from a re-analysis of the deposited data

How the results depend on the processing

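Members past an adjusted p of 0.05 numbered 0 under each scaling, without the filter, in limma, per cluster and without each library (0 to 0), and 1 with DESeq2 and with edgeR's likelihood ratio test. Members at an unadjusted p under 0.05, 5 in the main test, were 2 in both limma fits (10.4% and 10% of all Unigenes) and 2 with counts summed per cluster (11% of all Unigenes), and 3 to 13 without each library (6.67% to 12% of all Unigenes). The 4 higher and 1 lower of the main test became 0 and 3 without SN7 and 9 and 4 without SN8. Members whose phenotypes did not overlap, 17 in the main test, were 9 of 63 per cluster, beside 17.7% of all clusters or single Unigenes. They were 11 of 91 without the members known for other substrates (an alternative chosen after seeing the data), beside 17.3% of all Unigenes. Without each library they were 25 to 35, where 24.1% to 30.7% of all Unigenes did not overlap. The median log2 fold change of all members lay between -0.06 and 0.14 without each library, the lowest without SN7. Group medians that moved by more than the spread between palms were those of the TBL family (-0.18 with limma on log2(FPKM + 0.1), -0.21 to -0.03 without each library), the xylan backbone (0.19 with DESeq2, 0.19 without the filter, 0.11 and 0.12 with limma, 0.15 to 0.34 without each library), glucuronic acid side chains (0.54 with limma on log2(FPKM + 1)), methylation (1.58 with DESeq2 and 1.88 without the filter, which add a fragment), the reducing end (-0.63 per cluster), xyloglucan side chains (-0.50 to 0.48 without each library) and the other matches (0.04 to 0.28 without each library). The reducing end per cluster held Unigene28663_All alone (-0.63), since the cluster CL10144, whose contigs fall to 2 groups, was not counted there. In limma, CL2169.Contig1_All and CL2169.Contig2_All were 0.58 and 0.51 with a pseudocount of 1, and 1.15 and 1.09 with 0.1. Apart from the fragment and the change of members at the reducing end, the cause was not tested.

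Of 346 values of named members under these alternatives, 332 kept their direction and side of the threshold, 2 passed it (Unigene3540_All, -2.88 with DESeq2 and -2.87 with the likelihood ratio test) and 12 changed sign, in 7 Unigenes with log2 fold changes of at most 0.58 in size. CL7012.Contig1_All was -0.01 by library size alone and -0.30 and -0.41 with limma, with a pseudocount of 1 and 0.1. Without each library, log2 fold changes ranged from -0.94 to 0.64 in CL7012.Contig1_All, -0.30 to 0.85 in CL10144.Contig2_All, -0.06 to 0.68 in CL1993.Contig1_All, -0.58 to 0.15 in CL3364.Contig1_All, -0.61 to 0.50 in CL3364.Contig2_All, -0.07 to 1.17 in Unigene19978_All and -0.13 to 0.07 in Unigene37_All. No paired analysis was possible because the palms are separate plants, those of each phenotype at a place of their own.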

Other observations

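The databases in the files disagreed on the TBL family. Of its 52 members, 34 had a KEGG entry, and for 33 of these it was gamma-tubulin complex component 6, a part of the machinery that starts microtubules. Over all Unigenes, 50 carried this KEGG entry, of which 35 were trichome birefringence-like and 1 a gamma-tubulin protein by their Swiss-Prot match.

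A further 9 Unigenes matched the Swiss-Prot words without an Nr match in oil palm or date palm. With them, 148 Unigenes matched in all and 120 were tested, with 4 higher and 1 lower at an unadjusted p under 0.05 in edgeR's test. These were 4.17% of those tested, beside 9.85% of all Unigenes.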
